A study of Arabidopsis thaliana with 6 samples.

Results

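The regions described here are the 200 best-ranked of the 1954 regions of the A. thaliana genome that the LEAFY (LFY) transcription factor bound in p35S:LFY seedlings when these were compared with Col-0. All 1954 regions of the list entered the description, and the 200 of lowest rank number are set beside the remaining 1754. Both bound-region lists of the series together hold 2130 regions. LFY binding was measured by chromatin immunoprecipitation followed by sequencing (ChIP-seq), with 2 biological replicates of p35S:LFY and 2 of Col-0. The p35S:LFY plants (line CA26-15) carried the LFY cDNA behind the constitutive 35S promoter, and the controls were wild-type Col-0 plants without a transgene. Complete 15-day-old seedlings, roots included, of both genotypes were grown on plates in long days at 23 °C without treatment, and LFY was precipitated with a rabbit antibody raised against its C-terminal part. The endogenous LFY gene was present in both genotypes. A single transgenic line was used and the 35S promoter is active in most cell types, so the regions are those of LFY made across a whole seedling, in which cell types cannot be told apart.

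LFY is the master regulator of floral meristem identity in flowering plants. It binds semi-palindromic DNA sites as a dimer through its C-terminal domain, and its N-terminal domain lets it form larger oligomers. It is known for switching on floral genes such as APETALA1 and AGAMOUS in young flower primordia.

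The deposited list gives 1 rank for each region over both replicates and no value for a single replicate or control. Read depth cannot be read from it. No SD between replicates and no test over samples can therefore be given, and every share below carries an exact (Clopper-Pearson) 95% interval over regions, which covers the sampling of regions only. Neighbouring regions are not independent of each other. Each region was assigned to the protein-coding gene nearest to its midpoint, and 4 genes took 2 of the 200 best-ranked regions each and the others 1, while the remaining 1754 regions had 1598 genes. Of the 27432 protein-coding genes in the table, 6.41% were the gene of at least 1 region of the list and 0.714% were the gene of at least 1 of the 200 best-ranked. These shares are the background for the counts of gene classes given below.

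The best-ranked regions were wide. Their median width was 525.5 bp (95% interval 499 to 546, range 324 to 845), against 353 bp (349 to 359, range 159 to 865) for the remaining regions. All but 4 of the 200 best-ranked regions were wider than the median of the remaining ones, and 105 of the 1754 remaining regions were wider than the median of the best. A width of 500 bp or more was found in 114 of the 200 and in 164 of the 1754. The ranges overlapped over most of their length, and none of the best-ranked regions exceeded the widest of the remaining, an 865 bp region inside CAB1, a chlorophyll a/b-binding protein gene, at rank 920.

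Width decreased along the whole list. Spearman's rho between rank and width was -0.56 over the 1954 regions, -0.40 within the 200 best and -0.45 within the remaining 1754. All these points come from the same immunoprecipitations and the same peak calling, and both quantities were produced by that calling, so the correlation is given as a description without a test. In successive groups of 200 regions the median width went from 525.5 bp to 443.5 bp and then to 382.5 bp in ranks 401 to 600. It was 298.5 bp in the last 154 regions. The narrowest of the best-ranked regions were those of MYB17 (324 bp, rank 176), TIR1 (342 bp, rank 128) and AT3G05160 (345 bp, rank 134), the last of which was named after its width was seen.

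**Figure D1:**
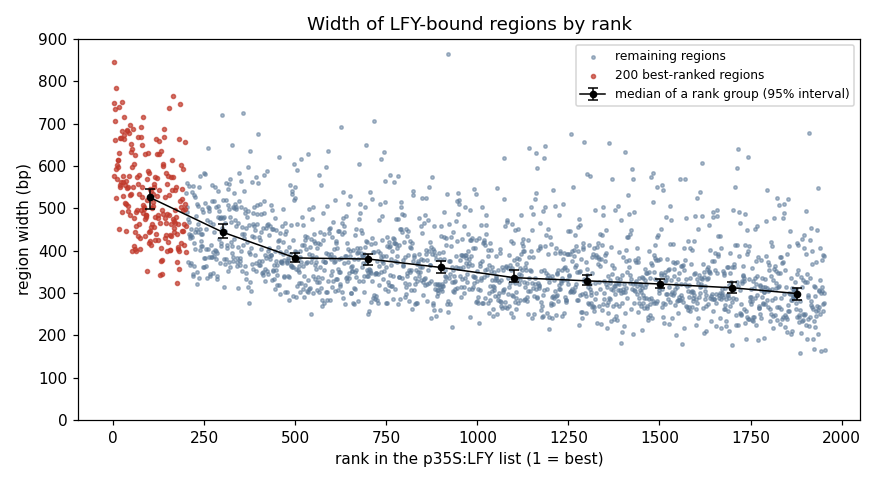
Region width in bp (vertical axis) against rank in the p35S:LFY list (horizontal axis, 1 the best), with 1 point per region and the 200 best-ranked in red. Black circles are medians of successive groups of 200 regions (the last of 154) with 95% intervals, which go from 525.5 bp in the best group to 298.5 bp in the last.

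Judged by its midpoint, a best-ranked region lay inside or outside genes in shares whose intervals overlapped those of the rest. The midpoint was inside a protein-coding gene in 90 of 200 regions (45.0%, 38.0 to 52.2), against 763 of 1754 (43.5%, 41.2 to 45.9). Another 75 of the 200 lay within 1 kb of their gene (37.5%, against 38.5% of the remaining), and 29 lay 1 to 3 kb away (14.5%, against 15.2%). The 2 sets of intervals overlapped in every distance class. This depended on the midpoint: when a region counted as inside a gene if any part of it overlapped one, the shares were 66.0% (59.0 to 72.5) of the best-ranked and 56.2% (53.9 to 58.6) of the remaining, and these intervals did not overlap. The best-ranked regions were also the wider ones, with medians of 525.5 and 353 bp, and the part of width in this difference was not tested. Gene strand was not used here, so positions upstream and downstream of a gene are not separated.

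Only 6 of the 200 (3.0%, 1.11 to 6.42) lay more than 3 kb from any protein-coding gene, against 48 of 1754 (2.74%). They belonged to PMAT2 (rank 14, 17522 bp away), FAD6 (rank 34, 3373 bp), AT4G18280 (rank 111, 4151 bp), WRKY48 (rank 167, 3617 bp), AT2G41380 (rank 180, 5424 bp) and scpl33 (rank 183, 3525 bp). PMAT2 encodes an acyltransferase that malonylates phenolic glucosides and FAD6 a plastid fatty acid desaturase. The PMAT2 region stood alone, since its distance exceeded the farthest of the remaining regions, at 11514 bp. All of these genes but PMAT2 and WRKY48 were named after their values were seen.

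For the regions outside genes, the median distance to the gene was 385 bp in the best group (266 to 583, n = 110) and 568 bp in the remaining (507 to 642, n = 991). The intervals overlapped. The space between the flanking genes had a median of 2534.5 bp (1642 to 3702) against 2814 bp (2600 to 3100), and it exceeded 5 kb for 32 of the 110 best-ranked and 243 of the 991 remaining regions outside genes. At least 2 genes lay within 3 kb of a region in 75% of the best and 78.4% of the remaining regions, so for most regions the nearest gene is 1 of several candidates.

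**Figure D2:**
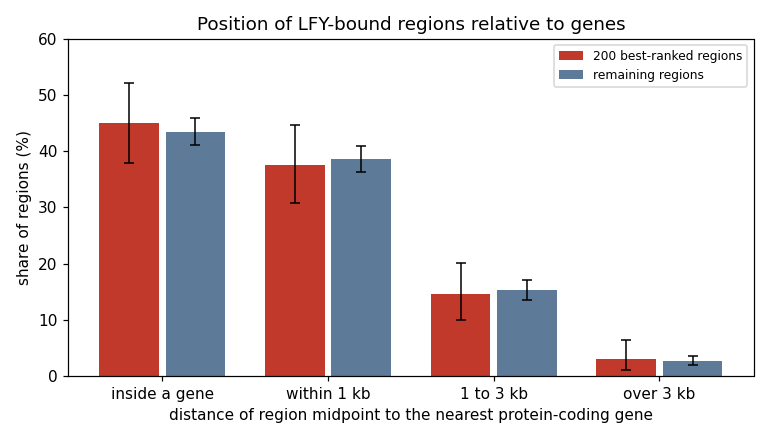
Share of regions in percent (vertical axis) whose midpoint lies inside a protein-coding gene or at 3 ranges of distance from it (horizontal axis), for the 200 best-ranked regions (red) and the remaining 1754 (blue). Bars start at 0 and error bars are exact 95% intervals. The bars of each pair, such as 45.0% and 43.5% inside genes, have overlapping intervals.

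Most best-ranked regions had no second region close by. Another region of the list began or ended within 2 kb of 52 of the 200 best-ranked regions (26.0%, 20.1 to 32.7), against 373 of 1754 (21.3%, 19.4 to 23.3). In 49 of these 52 cases the nearest such neighbour was one of the remaining regions, which make up 1754 of the 1954 regions of the list. The 3 exceptions were both regions of LTP12 and one of MYB37. By chromosome, the best-ranked regions were spread over all 5, and each held 32 to 44 of them. Chromosome 1 held 44 (22.0%, 16.5 to 28.4), against 29.1% (27.0 to 31.3) of the remaining regions, with intervals that overlapped.

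The 30 best-ranked regions had widths of 452 to 845 bp, with a median of 614.5 bp, and 27 of them were wider than the median of the 200. Of these, 14 had their midpoint inside a gene, 11 within 1 kb, 4 at 1 to 3 kb and 1 farther away. Their nearest genes had no name beyond the locus number in 18 of 30 cases. Over all 200 this share was 47.0% (39.9 to 54.2), against 49.2% (46.8 to 51.6) of the remaining regions. No other protein-coding gene lay within 3 kb in 4 of the 30.

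Rank 1 was an 845 bp region inside CYP81D7, a cytochrome P450 gene (TAIR10, chr2:9878385-9879229). It was the widest of the 200. Rank 2 (chr3:18628889-18629637, 749 bp) lay 349 bp from the midpoint to KICP-02, which encodes a microtubule motor protein. Both were single regions of their gene.

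Ranks 3 and 4 lay between an unnamed gene and a well-known developmental regulator. The rank 3 region (chr1:8177682-8178256, 575 bp) was assigned to AT1G23070, 2150 bp from its midpoint. PIN7, an auxin efflux carrier, lay on its other side, 1933 bp from the region's edge and not from its midpoint. The rank 4 region (chr1:8598373-8599079, 707 bp) was assigned to AT1G24265, 1665 bp from its midpoint, with SEP3 within 3 kb, 2250 bp from the region's edge. Distances from midpoint and edge are not comparable, and the assigned gene was the nearer by either measure for both regions. SEP3 is the MADS-box partner of the floral organ identity factors. The nearest gene is thus a convention in both cases, and PIN7 and SEP3 were each also the nearest gene of a lower-ranked region, at rank 1834 and rank 1462.

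Ranks 5 to 10 were assigned to AT5G46910 (rank 5, 735 bp wide), AT1G10095 (rank 6, 661 bp), AT3G53950 (rank 7, 783 bp), AT2G25737 (rank 8, 525 bp), ERD4 (rank 9, 592 bp) and AT5G57130 (rank 10, 601 bp). ERD4 was first found as a gene of early dehydration response. AT5G57130 is SMXL5, which acts in phloem formation, and the region lay inside it. AT1G10095 and AT2G25737 had their region within 1 kb, with midpoints 57 bp and 157 bp away.

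Ranks 11 and 12 lay inside genes of the MYB superfamily. TCL2 (rank 11, chr2:12965407-12965974, 568 bp) encodes a single-repeat MYB protein that represses trichome formation, and the related TCL1 lay within 3 kb of the same region. MYB12 (rank 12, chr2:19478907-19479521, 615 bp) encodes an activator of flavonol synthesis. It had a second region at rank 728, 929 bp from the first.

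The other named genes of the 30 best spanned several functions. EMB1290 (rank 18, 667 bp) encodes the cysteine-rich receptor-like kinase CRK17, with CRK15 and CRK16 within 3 kb. PIP2;8 (rank 20, 555 bp) is a plasma membrane aquaporin, PKS4 (rank 22, 562 bp) a phytochrome kinase substrate in phototropism, and AT4G09530 (rank 23, 492 bp) the auxin-responsive gene SAUR17. The region of RD26 (rank 26, chr4:13708771-13709333, 563 bp), a NAC transcription factor of the abscisic acid and drought response, lay inside the gene. RTFL15 (rank 28, 577 bp, 34 bp away) encodes a small DEVIL peptide, and MTO1 (rank 29, 674 bp, inside) the cystathionine gamma-synthase that opens methionine synthesis. AT1G29435 (rank 15, 738 bp) lies in a cluster of SAUR genes, 4 of which (AT1G29420, AT1G29430, SAUR63 and AT1G29450) were within 3 kb of the region.

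The remaining genes of the 30 best were named by locus only. AT3G50400 (rank 13, 614 bp), AT5G59680 (rank 24, 750 bp) and AT1G07650 (rank 30, 664 bp) had their region outside the gene. AT2G41000 (rank 16, 630 bp), AT2G04170 (rank 17, 452 bp), AT5G52070 (rank 19, 551 bp), AT5G09460 (rank 21, 667 bp), AT5G38300 (rank 25, 682 bp) and AT2G33180 (rank 27, 530 bp) had it inside.

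The genes with 2 of the best-ranked regions were AT1G29435 (ranks 15 and 63), LTP12, a lipid transfer protein gene (ranks 67 and 73, 571 bp apart), AT2G41380 (ranks 87 and 180) and MYB37 (rank 129 and 4 places before the limit of 200). MYB37 had another region at rank 511. Over the whole list 1585 genes had 1 region, 152 had 2 and 21 had 3 or more, and 36 genes of the best-ranked regions were also the gene of a remaining region. Among the genes with 3 regions, 5 had at least 1 of the best-ranked ones, namely ORP2A (ranks 36, 1359 and 1861), BBX31 (56, 587 and 1546), MYB37, PAO5 (143, 229 and 1428) and AT5G64120 (195, 1193 and 1508). ORP2A and PAO5 were named after their ranks were seen.

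Gene classes were read from 37 families recognised by gene symbol or synonym. The 20 transcription factor families together held 924 genes, and 20 of the 200 best-ranked regions had such a gene (10.0%, 6.22 to 15.0) against 128 of the remaining 1754 (7.30%, 6.12 to 8.62). The intervals overlapped. Counted by gene, 19 of the 924 (2.06%) had a best-ranked region, against 0.714% of all protein-coding genes, and 125 (13.5%) had a region of any rank, against 6.41%. The share among ranks 1 to 100 was 7.0% (2.86 to 13.9) and in the other 100 it was 13.0% (7.11 to 21.2). Along the list it lay between 5.5% and 10.0% in groups of 200, and the intervals of these groups overlapped. Families recognised by symbol miss unnamed members, members whose symbol has another form, and factors outside these 20 families, such as TCL2. The zinc finger genes DAZ3 (rank 58) and GIS (rank 114) were matched to no family and are missing from these counts. DAZ3 was named after its rank was seen.

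**Figure D3:**
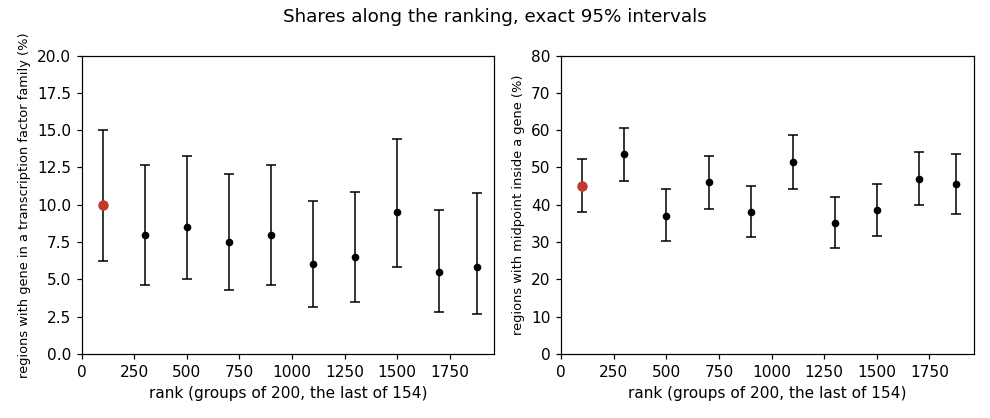
Share of regions in percent whose gene belongs to a transcription factor family (left) and whose midpoint lies inside a protein-coding gene (right), in successive groups of 200 ranks, the last of 154 (horizontal axes). Points are shares, bars exact 95% intervals, and the red point is the 200 best-ranked group. Its shares of 10.0% and 45.0% lie within the intervals of most later groups.

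MYB transcription factors, which act in secondary metabolism, meristems and stress, were the family with the most best-ranked regions together with the cytochromes P450. Among the best-ranked regions 7 had a MYB gene (3.5%, 1.42 to 7.08), against 14 of the remaining (0.798%, 0.437 to 1.34). This was the only one of the 37 families whose intervals did not overlap, and 37 families were looked at. It held only with both best-ranked MYB37 regions counted, which lay 1677 bp apart. With MYB37 counted once, 6 best-ranked regions have an interval of 1.11 to 6.42, which overlaps that of the remaining MYB regions. The 7 regions belonged to 6 of the 125 MYB genes (4.8%, background 0.714%), since MYB37 had 2 of them, and 16 MYB genes (12.8%, background 6.41%) had a region at any rank.

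The 6 MYB genes of the best-ranked regions act in different processes. MYB12 (rank 12), MYB111 (rank 123, chr5:20001322-20001747, 426 bp) and MYB11 (rank 144, chr3:23156013-23156478, 466 bp) are the 3 flavonol regulators, each with the region inside the gene. MYB37, also called RAX1, promotes axillary meristems, with one region inside it (4 places before the limit, chr5:7697287-7697795) and one 1683 bp away (rank 129, chr5:7699473-7699938). MYB17 (rank 176, chr3:22670305-22670628, 263 bp away) acts downstream of LFY in meristem identity. MYB59 (rank 169, 542 bp wide, 1415 bp away) acts in root growth and nutrition. Of the remaining MYB regions, the best-ranked were those of MYB28 (rank 263), MYB102 (rank 274), PAP1 (rank 303) and MYB87 (rank 322), named after their ranks were seen.

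The other transcription factor families had 1 or 2 best-ranked regions each or none. NAC genes had 2 (1.0%, against 1.08% of the remaining), at RD26 (rank 26) and NAC014 (rank 62), while 20 of 100 NAC genes had a region at some rank, against the background of 6.41%. Homeodomain genes had 2, at HAT3 (rank 32, inside), an HD-ZIP factor of leaf polarity and shade response, and PRS (rank 77, inside), the WUSCHEL-related WOX3 of lateral organ margins. Genes of the ERF and DREB family had 2, at ERF15 (rank 39, 2081 bp away) and ERF2 (rank 117, inside). B-box genes, which act in light signalling, had 2, at BBX31 (rank 56, 2010 bp away) and BBX28 (rank 112, 115 bp away), and both genes also had lower-ranked regions.

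GRAS factors had 2 best-ranked regions, at HAM3 (rank 103, 799 bp away), which keeps the shoot meristem undifferentiated, and SCL1 (rank 130, inside). In this small family 5 of 21 genes (23.8%, background 6.41%) had a region at any rank. One region each fell on AP1 of the MADS-box family (rank 140), IDD1 of the C2H2 family (rank 148, 474 bp away) and WRKY48 (rank 167, 3617 bp away). The families of bHLH, bZIP, TCP, LBD, NF-Y, GATA, DOF, ARF, AUX/IAA and heat shock factors had no gene among the best-ranked regions, but between 2 and 6 genes each among the remaining. With 15 to 46 genes per family, 0 is near the background of 0.714%. Their shares at any rank ran from 5.56% for NF-Y to 27.3% for TCP, against the background of 6.41%. SPL factors, which promote the adult phase, had 0 of 17 genes as nearest gene at any rank, against a background of 6.41%. The family is small, and 3 of its genes had a region within 3 kb (background 14.1%).

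Cytochromes P450, the oxidases of hormone and defence compound metabolism, had 7 of the best-ranked regions (3.5%, 1.42 to 7.08) against 20 of the remaining (1.14%, 0.698 to 1.76). These intervals overlapped. The genes were CYP81D7 (rank 1), CYP71B3 (rank 52), CYP709B2 (rank 57), CYP83B1 (rank 72), CYP86A7 (rank 138), CYP714A1 (rank 177) and CYP705A24 (rank 184), of which CYP86A7 and CYP705A24 were named after their ranks were seen. CYP83B1 acts in indole glucosinolate synthesis and CYP714A1 inactivates gibberellins. Several lay in tandem clusters, with CYP71B23 and CYP71B24 within 3 kb of the CYP71B3 region and CYP709B1 within 3 kb of that of CYP709B2. By gene, 7 of 239 (2.93%, background 0.714%) had a best-ranked region and 23 (9.62%, background 6.41%) a region at any rank.

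Other enzyme, cell wall and transport families had few best-ranked regions. The family of expansins, xyloglucan-modifying XTHs and cellulose synthases had 2 (1.0%, against 1.20% of the remaining), at XTH25 (rank 70, 126 bp away) and EXLA3 (rank 155, 220 bp away). XTH12, XTH13 and TCH4 were within 3 kb of the XTH25 region. Single regions fell on GSTU9 (rank 82), a glutathione transferase, PEN2 (rank 122), the myrosinase of antifungal defence, GT72B1 (rank 165), a xenobiotic glucosyltransferase, ATPMEPCRD (rank 182), a pectin methylesterase, and AT5G64120 (rank 195), the peroxidase PRX71. Among transporters there was one region at PIP2;8 (rank 20), one at ABCB27 (rank 107) and one at the hexose transporter STP11 (rank 137). Ribosomal proteins, calcium-dependent and CBL-interacting kinases, MAP kinase cascade genes and receptor-like proteins had none. With 51 to 73 genes per family, 0 is near the background of 0.714%. Their shares at any rank, 5.48% to 7.41%, were also near the background of 6.41%.

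**Figure D4:**
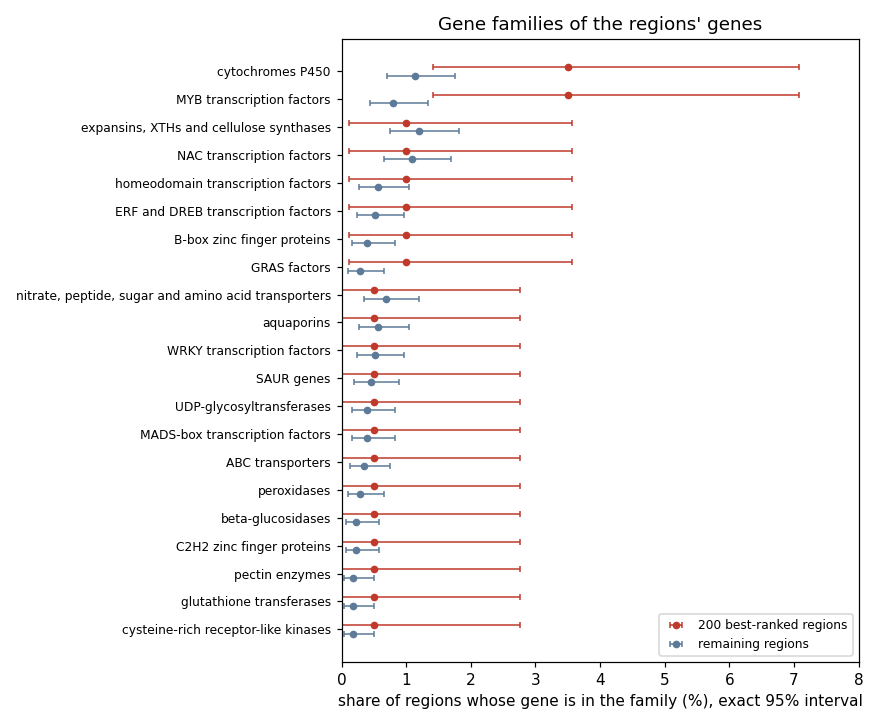
Share of regions in percent (horizontal axis) whose gene belongs to each of the 21 families (vertical axis) with at least 1 best-ranked region, for the 200 best-ranked (red) and the remaining 1754 regions (blue). Points are shares and bars exact 95% intervals, and only the MYB transcription factors, at 3.5% and 0.798%, have bars that do not overlap. This holds only with MYB37 entering with 2 neighbouring regions. For 6 of 200 regions the interval is 1.11 to 6.42, which overlaps that of the remaining MYB regions.

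Genes of floral, meristem and hormone pathways were read from 10 lists with 137 genes. Listed genes were the gene of 6 of the 200 best-ranked regions (3.0%, 1.11 to 6.42) and of 46 of the remaining (2.62%, 1.93 to 3.48). The 6 regions belonged to TIR1 (rank 128), MYB37 (rank 129 and again just inside the limit), AP1 (rank 140), MYB17 (rank 176) and CYP714A1 (rank 177). None of these was among the 100 best-ranked. At any rank 41 of the 137 listed genes (29.9%) had a region, against 6.41% of all protein-coding genes, and 36 of these 41 therefore had only regions beyond rank 200.

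AP1, the meristem identity gene that LFY activates, had its best region at rank 140 (chr1:25986248-25986933, 686 bp wide, midpoint 241 bp from the gene) and a second one at rank 1475, 1088 bp from it. No other gene lay within 3 kb of the first. Of the 20 floral meristem and organ identity genes, 6 had a region as nearest gene (30%, background 6.41%). AP1 and MYB17 were among them. The others were AG, the reproductive organ identity gene, at rank 443, SEP4 at rank 621, SHP2 at rank 676 and SEP3 at rank 1462. These AG, SEP4 and SHP2 ranks, and those of further listed genes below rank 200, were named after they were seen.

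The meristem lists are given by their counts, whose difference was not tested. Of the 10 axillary meristem and organ boundary genes 5 had a region, MYB37 in the best-ranked group and BOP1 (ranks 599, 1301 and 1787), CUC3 (rank 1079), BOP2 (rank 1246) and CUC2 (rank 1904) among the remaining. BOP1 and BOP2 shape the boundary between organs and act in floral meristem identity, and the CUC genes separate organs. Of the 10 inflorescence and shoot meristem genes only STM had one as nearest gene (rank 1608), and this region lay over 3 kb from it. The background for a nearest gene at any rank was 6.41%. TFL1, which keeps the inflorescence meristem from becoming a flower, was not a nearest gene, although 2 regions lay within 3 kb of it, the best at rank 342. Of 17 flowering time genes 6 had a region, the best at FD (rank 355).

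The auxin and gibberellin lists had the largest counts among the hormone pathways. Of 13 auxin genes 7 had a region, led by the receptor gene TIR1 (rank 128, chr3:23278941-23279282, 342 bp, 2481 bp away). TIR1 had a second region 68 bp from the first, at rank 617. The auxin genes with a region include MP, whose regions (ranks 1842 and 1849) lay over 3 kb from it. Of 21 gibberellin genes 8 had a region, led by CYP714A1 (rank 177, 403 bp wide, 229 bp away). The receptor gene GID1B lay within 3 kb of the rank 131 region, which was assigned to NPL41. Among 13 cytokinin genes 3 had a region, the first being the cytokinin synthesis gene IPT3 at rank 204, just outside the best-ranked group. Such counts depend on list membership. The cytokinin list does not hold IPT5, at rank 198, nor does the abscisic acid list hold the phosphatase gene HAI1, at rank 49. The lists for abscisic acid (3 of 15), for pathogen response (1 of 10) and for reference genes of constant expression (1 of 8) had no gene in the best 200.

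**Figure D5:**
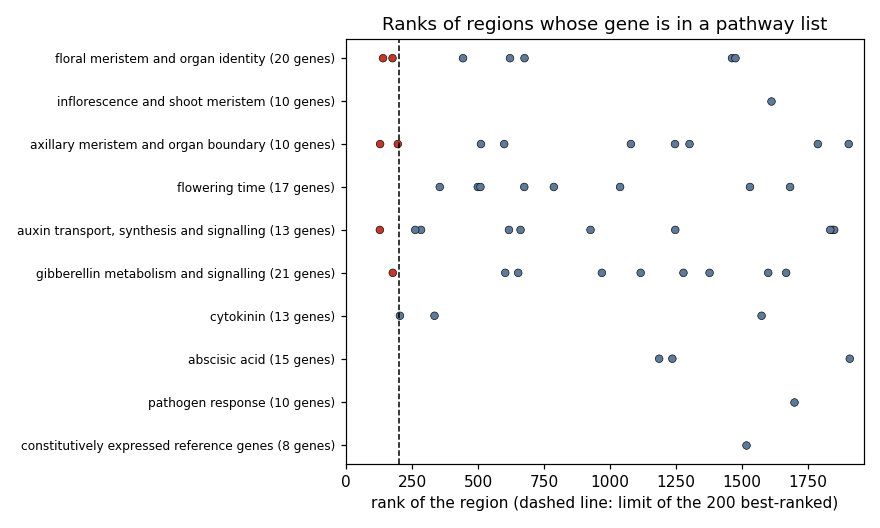
Rank of each region whose nearest gene is in a pathway list (horizontal axis), by list (vertical axis, with the number of genes in each list). Points are regions, red for the 200 best-ranked, and the dashed line is the limit at 200, with 6 points to its left from the floral, axillary meristem, auxin and gibberellin lists.

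Counting any gene within 3 kb of a region and not only the nearest added candidates. Within 3 kb of the best-ranked regions lay 459 genes (1.67% of all protein-coding genes), and within 3 kb of any region 3855 (14.1%). Listed genes within 3 kb of a best-ranked region then numbered 8 of 137, the added ones being PIN7 (rank 3), SEP3 (rank 4) and GID1B (rank 131). Members of the transcription factor families within 3 kb numbered 27 of 924. The added ones included CBF4, a dehydration-responsive factor 51 bp from the rank 90 region, bHLH121, 400 bp from the rank 66 region, and TCP9, 528 bp from the rank 139 region, which were named after their positions were seen.

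Several small families that the 37 do not separate were looked at after the ranks had been seen, and their counts are descriptions only. The background for a nearest gene was 6.41% at any rank and 0.714% among the 200 best-ranked regions. The flavonol MYB factors had 3 of 3 members among the best-ranked regions, while of 8 flavonoid pathway enzymes 0 were a nearest gene, with TT7 within 3 kb of the rank 199 region. Of 24 DEVIL peptide genes 3 had a region, RTFL15 at rank 28, RTFL21 at rank 200 and RTFL5 at rank 1391. Of 9 isopentenyltransferases, which make cytokinins, IPT5 had rank 198, IPT3 rank 204 and IPT1 rank 519.

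Other small families of this kind had 1 or 2 best-ranked regions each. ANT, which promotes organ growth and was the only one of 7 AINTEGUMENTA and PLETHORA factors with a region, had rank 46 (chr4:17738015-17738710, 696 bp, 1152 bp away). Of 20 A-type and B-type cyclins CYCB2;4 had rank 38, CYCA2;4 ranks 83 and 1383, and CYCB2;2 rank 1711. Of 31 CLE peptide genes 3 had a region (9.68%), the best at CLE17 (rank 48). Among 10 trichome activators 1 had a region (10%), GIS at rank 114. For families this small, both are near the background of 6.41%. Of the 9 clade A phosphatases of abscisic acid signalling, HAI1 had rank 49 and 3 others had regions beyond rank 500. Of 4 HAIRY MERISTEM factors, HAM3 had ranks 103 and 1355 and HAM4 rank 302. Of 15 WUSCHEL-related homeobox factors PRS had rank 77 and WOX13 rank 778. Of 7 single-repeat MYB trichome repressors TCL2 had rank 11 and CPC rank 919.

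The limit at rank 200 did not fall at a visible step. Just inside it, the last 5 regions had widths of 509, 657, 499, 459 and 396 bp and belonged to MYB37, AT5G11680, IPT5, AT5G07980 and RTFL21. Just outside, the next 5, from rank 201 on, had widths of 537, 492, 503, 559 and 475 bp and belonged to At17.1, AT1G29460, PBS1, IPT3 and AT5G57910. PBS1 is the kinase whose cleavage by a bacterial protease alerts plant immunity, and AT1G29460 is in the SAUR cluster of the rank 15 and 63 regions. The widths on either side overlapped, and an IPT gene stood on each.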

How the data were processed

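LFY-bound regions of p35S:LFY seedlings, called against Col-0, were taken from the authors' deposited list, whose values are a rank, a score without unit that orders the regions of that list (1 the best). The authors mapped the reads, removed duplicates and called peaks with SHORE, and kept regions that passed a false discovery rate in all 4 comparisons of replicates with controls. The build is TAIR10 per the submitters' processing notes. Both lists of the series also hold a coverage ratio between p35S:LFY and p35S:LFYTERE (2 columns), which was not used. The p35S:LFYTERE list shares the Col-0 controls and was only counted. Rank and width both come from the peak calling, and how width entered the rank was not tested.

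Genes came from a RefSeq table of TAIR10.1 with 27432 protein-coding genes on 5 chromosomes. Genes outside this table cannot be a nearest gene, and all coordinates printed are those of the deposited list, counted from 1. All 137 genes of the 10 lists matched by locus. The 37 families were matched by symbol or synonym, with 51 names left out by hand because their symbols mean other proteins. The members and lists were chosen with earlier results of these data known. Genes named were the nearest genes of the 30 best-ranked regions, the listed and transcription factor genes of the 200 best, up to 4 best-ranked genes of each other family, and those of the 5 regions on either side of the limit. Gene assignment was run on simulated regions placed inside or just before genes with free space before them and no overlapping neighbour. Overlapping or crowded genes were not covered by this check. Medians carry order-statistic 95% intervals. Alternatives were the best 100 or 400 regions, the gene of largest overlap, any gene within 3 kb, and merging of regions under 2 kb apart. A planned motif count needs sequence and was not run. Python 3.11.15, numpy 2.4.6, pandas 2.3.3, scipy 1.17.1 and matplotlib 3.10.9 were used.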

Additional observations from a re-analysis of the deposited data

How the results depend on the processing

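Of 34 values recomputed under the alternatives, 23 stayed within the 95% interval of the value reported and 11 did not. With the gene of largest overlap in place of the midpoint, the share inside a gene was 66.0% (59.0 to 72.5) for the best-ranked and 56.2% (53.9 to 58.6) for the remaining regions. These intervals did not overlap, whereas those by midpoint did. A region touching a gene anywhere then counts, and the gene itself was the same for all 200 best-ranked regions. The median width of the best-ranked regions was 559.5 bp for the best 100, 480 bp for the best 400 and 574 bp when regions under 2 kb apart were merged, and that of the remaining was 360, 343 and 375 bp. The best-ranked regions were the wider ones each time. The share of regions with a listed gene was 0% in the best 100, with an upper limit of 3.62%. With any gene within 3 kb, the remaining regions had a transcription factor gene in 11.6% and a listed gene in 3.59%, against 14.0% and 4.5% of the best-ranked. No paired analysis was possible because the list gives 1 rank per region over both replicates, and for the same reason no replicate could be left out. The replicates' depth, which limits how many weak regions can be found, was not analysed here.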

Other observations

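Of the 21 genes with 3 or more regions, 5 had at least 1 of the 200 best-ranked. PIP3, a plasma membrane aquaporin gene, was the nearest gene of 5 regions at ranks 682, 802, 1109, 1183 and 1342, more than any other gene, and none of these was among the 200 best. Of the 31 aquaporin genes, 7 had a region at any rank (22.6%), against 6.41% of all protein-coding genes. Such a share was not particular to aquaporins, with 27.3% for TCP, 23.8% for GRAS, 22.7% for bHLH and 20% for NAC genes. The nitrate reductase gene NIA2 had 3 regions (ranks 423, 1368 and 1567), as did the expansin gene EXPA8 (ranks 877, 1297 and 1501) and MYB28, a regulator of aliphatic glucosinolates (ranks 263, 1111 and 1432). These genes were named after their counts were seen.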
